A study of Mus musculus with 18 samples.

Results

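The platelet-derived growth factor (PDGF) family was followed in Col2.3GFP osteoblasts through its 4 ligand genes, *Pdgfa*, *Pdgfb*, *Pdgfc* and *Pdgfd*, and its 2 receptor genes, *Pdgfra* and *Pdgfrb*. These 6 genes were taken by symbol from the 15853 genes that the 3 count tables share. *Pdgfd* had been picked out because it was higher in GFP+ cells of every source, so its GFP+ values are given as a description with no test. The other 5 members entered as its family, with earlier results of these data known. RNA sequencing libraries of 6 populations were used, with 3 libraries each. Bone GFP+ (hi) cells, labelled osteoblasts, were sorted fresh from long bones of Col2.3GFP mice and are set against bone GFP- cells, labelled a heterogeneous negative population. Bone chip GFP+ (hi) cells came from cultures of bone chips of such mice under osteogenic differentiation and are set against the GFP- cells of those cultures. ESC-OB GFP+ cells were differentiated from Col2.3GFP mouse embryonic stem cells (ESC) and are set against ESC, which have no GFP- sort and carry the same treatment label although their title and the study's methods describe stem cells. The transgene places GFP under a fragment of the *Col1a1* promoter, so GFP+ cells are those in which that fragment is active. Age, sex and strain are not given in the labels, nor is it said which libraries come from separate animals or cultures, so p-values measure the spread between these libraries, which may be technical. Of the pairs of libraries within a population, ESC replicates 2 and 3 differed least, with a chi-square of their counts of 1.65 per degree of freedom. The other pairs had 6.78 to 124. Whether these 2 ESC libraries are separate cultures is not given, so p-values against ESC may rest on too small a spread.

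PDGF ligands are secreted dimers that bind receptor tyrosine kinases and make receptors pair. PDGF-A binds the α receptor, PDGF-B binds both receptors, PDGF-C acts mainly through the α receptor and PDGF-D mainly through the β receptor. PDGF-A and PDGF-B are cleaved inside the cell by proprotein convertases, whereas PDGF-C and PDGF-D leave the cell with a CUB domain that extracellular proteases have to remove. In the skeleton the α receptor is widely used as a mark of mesenchymal progenitor cells, and the β receptor is known for its part in pericytes and in stromal cells that answer PDGF-B from endothelium, platelets and preosteoclasts.

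In mm9 coordinates of GENCODE vM1, *Pdgfd* lies at chr9:6168612-6378843 and *Pdgfc* at chr3:80840338-81017962, both on the plus strand, and *Pdgfra* lies at chr5:75548316-75594229 on the plus strand. *Pdgfa* (chr5:139451968-139473324) and *Pdgfb* (chr15:79826330-79845238) are on the minus strand, and the place of *Pdgfrb* is given with its values. The exons of *Pdgfa* share 813 bp with an antisense gene, 6330403L08Rik, and those of *Pdgfc* share 147 bp with Gm16000. Those antisense genes were not analysed here and strand use in counting is not given in the sources used here, so their reads cannot be told apart from those of the 2 ligand genes. RefSeq promoter windows of GRCm38 run from 250 bases before a start to 50 after it. Those of 4 members, *Pdgfa*, *Pdgfc*, *Pdgfd* and *Pdgfra*, were searched, and none of *Pdgfb* or *Pdgfrb* was. The stretches before the first RefSeq starts of *Pdgfd* and *Pdgfc*, the CUB-domain ligand genes with the 2 largest differences between bone GFP+ (hi) and GFP- cells, are shown 5′ to 3′ on the plus strand, with TATAAA in capitals. In mm9 they lie at chr9:6168236-6168362 and chr3:80840088-80840337, and the GENCODE vM1 model of *Pdgfd* starts further downstream.
Pdgfd: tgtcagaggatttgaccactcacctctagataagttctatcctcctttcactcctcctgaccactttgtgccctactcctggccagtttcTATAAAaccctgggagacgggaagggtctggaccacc
Pdgfc: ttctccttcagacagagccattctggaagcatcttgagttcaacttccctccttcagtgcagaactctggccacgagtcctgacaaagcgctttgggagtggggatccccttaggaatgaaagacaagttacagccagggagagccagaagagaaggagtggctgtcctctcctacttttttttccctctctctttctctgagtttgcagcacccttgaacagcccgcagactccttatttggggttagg
The *Pdgfd* stretch holds TATAAA once, beginning 37 bases before the first RefSeq start and at -160 from the later start on which the gene's window was laid, and the *Pdgfc* stretch does not hold it. The *Pdgfd* stretch is the shorter, at 127 bases against 250, because the window was ended before that first start. TATAAA was in 13.6% of all 32851 windows on either strand. Of the other motifs searched on both strands, the GC box GGGCGG (35.7% of windows) was found in both windows of *Pdgfa*, and TGTGGT (16.8%), CCAAT (37.4%) and TGANTCA (7.81%) were in none of the windows of these 4 genes, so no matches of different motifs overlapped. These are matches of letters, not sites shown to be used.

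Total counts per library ranged from 4920977 to 43874837. *Col1a1* took 36.2 to 37.5% of the counts of bone GFP+ (hi) libraries and at most 1.59% in bone GFP- libraries, so libraries were scaled with TMM factors, and levels are TMM-scaled CPM (counts per 1000000 of the scaled library size), with factors from the 18 libraries together. This share was 12.1 to 14.4% in bone chip GFP+ (hi) and 2.93 to 3.37% in bone chip GFP- libraries, and 0.324 to 0.774% in ESC-OB GFP+ and at most 0.00131% in ESC libraries. Scaling by total counts instead lowered the median log2 fold change of all genes by 1.06 in bone and by 0.55 in bone chips, and raised it by 2.06 for ESC-OB GFP+ over bone GFP+ (hi) cells. Y-linked genes summed to 6, 913 and 9 counts in bone GFP+ (hi) replicates 1 to 3, against 727, 1167 and 625 in the GFP- replicates. The X-linked *Xist* had 741, 22 and 348 counts in these GFP+ (hi) replicates and 0, 2 and 10 in the GFP- replicates. Bone chip libraries held at most 1 Y-linked count, and 3068 to 11573 counts of *Xist*. The sex-linked counts thus differed between bone and bone chips as well as within bone. The chondrocyte list (6 of 6 genes detected, none at 0) had a sum of 2909 to 7419 CPM in bone GFP+ (hi) libraries, against 136732 to 285859 CPM in bone GFP- libraries, so that this GFP- population is rich in cartilage transcripts. The osteoblast list was called higher in 7 of 7 genes in bone and in bone chips, but of the 4 genes tested in ESC-OB GFP+ cells 3 were higher than in ESC and *Alpl* was lower (6.76 to 42.5 CPM in ESC-OB GFP+, against 143 to 238 CPM in ESC). *Bglap* and *Bglap2* stayed under 1 CPM in ESC-OB GFP+ libraries, and *Ibsp* was at 0.349, 830 and 146 CPM in them. The primitive endoderm list, with 8 of 8 genes called higher in ESC-OB GFP+ cells, had a sum of 793 to 2068 CPM, against 65.9 to 96.9 CPM in ESC. Most of each sum was *Lama1* (471 to 1489 CPM in ESC-OB GFP+ and 59.2 to 92.7 CPM in ESC). The part of these other cell types in the values of the family was not tested, and in sorted populations fewer cells of a type and less RNA per cell cannot be told apart.

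A gene was called when its Benjamini-Hochberg adjusted p of the edgeR quasi-likelihood test was under 0.05. In bone, 3 of the 4 members tested other than *Pdgfd* were higher in GFP+ (hi) than in GFP- cells (*Pdgfa*, *Pdgfc*, *Pdgfra*) and 1 was lower (*Pdgfrb*). Of all 12559 genes tested there, 19.5% were called higher and 22.1% lower. In bone chips, 2 of 5 were higher (*Pdgfa*, *Pdgfc*) and 2 lower (*Pdgfra*, *Pdgfrb*), beside 20.4% and 23.1% of 12841 genes. In ESC-OB GFP+ cells against ESC, 2 of 5 were higher (*Pdgfra*, *Pdgfrb*) and 1 lower (*Pdgfa*), beside 43.0% and 34.7% of 15417 genes, and the median of all genes lay at 0.22 on the log2 scale.

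**Figure D1:**
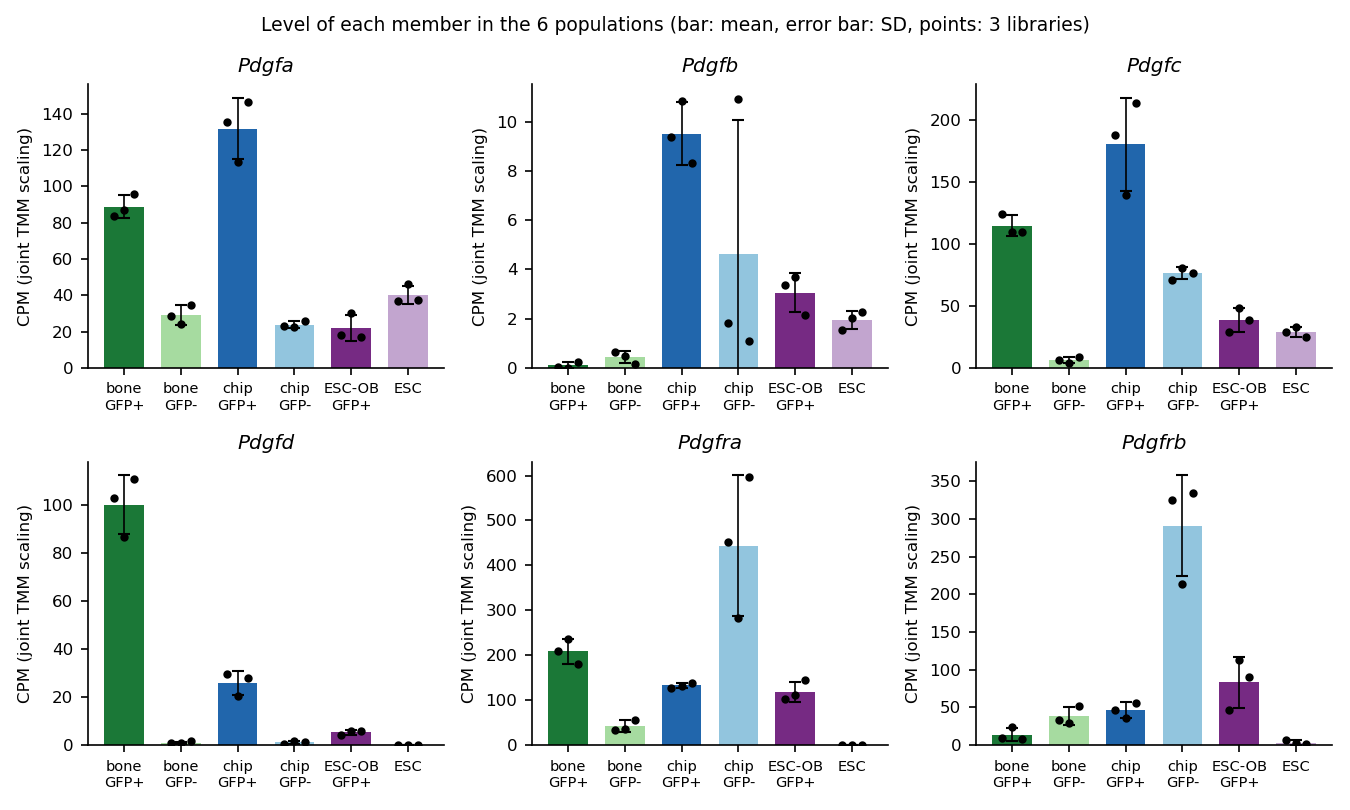
Levels of the 6 members in joint TMM-scaled CPM (linear axes, 1 panel per gene) for bone GFP+ (hi), bone GFP-, bone chip GFP+ (hi), bone chip GFP-, ESC-OB GFP+ and ESC libraries; bars are means, error bars SD and points the 3 libraries of each population. *Pdgfd* stands at 86.7 to 111 CPM in bone GFP+ (hi) cells and at 0 in ESC, and 1 bone chip GFP- library holds 10.9 CPM of *Pdgfb* beside 1.83 and 1.08 in the others.

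*Pdgfa* encodes the ligand of the α receptor that many mesenchymal and epithelial cells make. It was at 83.7, 86.9 and 96.0 CPM in bone GFP+ (hi) libraries, against 28.4, 24.2 and 34.8 CPM in bone GFP- libraries. The groups did not overlap, and the fitted difference was 2.78-fold (log2 fold change 1.48, SE 0.18, edgeR adjusted p = 1.63e-04). With total-count scaling this difference was 0.43 on the log2 scale (adjusted p = 0.0466).

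In bone chips *Pdgfa* was at 135, 113 and 147 CPM in GFP+ (hi) cells, against 23.0, 22.5 and 26.1 CPM in GFP- cells, the widest gap of this gene in the 3 comparisons. The difference was 5.54-fold (log2 2.47, SE 0.13, edgeR adjusted p = 3.13e-05). In the ESC comparison it went the other way, with 18.1, 30.0 and 17.0 CPM in ESC-OB GFP+ cells and 36.8, 46.1 and 37.6 CPM in ESC. That fall of 0.90 on the log2 scale (SE 0.23, edgeR adjusted p = 0.00381) is under a threshold of 1 on that scale. Over the 6 populations the order by mean was bone chip GFP+ (hi), bone GFP+ (hi), ESC, bone GFP-, bone chip GFP- and ESC-OB GFP+, and the last 3 overlapped their neighbours.

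*Pdgfb*, which encodes the ligand of both receptors and is best known from endothelium and platelets, was scarce. It had 1, 0 and 3 counts in bone GFP+ (hi) libraries and 4, 3 and 1 in bone GFP- libraries, too few for the filter on low counts. The ratio of the summed counts, on scaled library sizes, was 0.218 with a 95% counting interval of 0.0481 to 0.815, which covers counting error only. Endothelial markers were scarce in the same cells, at a sum of 0.847 to 1.49 CPM in bone GFP+ (hi) and 4.91 to 7.97 CPM in bone GFP- libraries, with 5 and 6 of 8 genes detected and *Emcn* at 0 in both.

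In bone chips *Pdgfb* was at 9.40, 10.9 and 8.34 CPM in GFP+ (hi) cells and at 1.83, 10.9 and 1.08 CPM in GFP- cells. The groups overlapped through GFP- replicate 2, and the difference was not called (log2 1.05, SE 0.77, edgeR adjusted p = 0.312). Without that library it was 2.78 on the log2 scale and was called (edgeR adjusted p = 1.64e-04). The same library stood apart in monocyte and macrophage markers: their sum was 552 to 906 CPM in GFP+ (hi) libraries, against 513, 4343 and 386 CPM in GFP- replicates 1 to 3, with 7 of 8 symbols detected in both groups and *Adgre1*, a second symbol of the detected *Emr1*, absent. Whether these cells carry the *Pdgfb* of that library was not tested. *Pdgfb* was at 3.35, 3.68 and 2.15 CPM in ESC-OB GFP+ cells, against 1.53, 2.02 and 2.25 CPM in ESC, and did not pass the test (log2 0.65, SE 0.37, edgeR adjusted p = 0.125). It was called without ESC-OB GFP+ replicate 3 (log2 0.93, adjusted p = 0.0446). By mean level the order was bone chip GFP+ (hi), bone chip GFP-, ESC-OB GFP+, ESC, bone GFP- and bone GFP+ (hi), and ESC and bone GFP- libraries were the one neighbouring pair that did not overlap.

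*Pdgfc* encodes one of the CUB-domain ligands. In bone it was at 124, 110 and 110 CPM in GFP+ (hi) cells, against 5.93, 3.60 and 8.82 CPM in GFP- cells. After *Pdgfd* this was the largest difference of a ligand in bone, 17.1-fold (log2 4.10, SE 0.28, edgeR adjusted p = 4.86e-06). In bone chips it was at 188, 140 and 214 CPM in GFP+ (hi) cells and at 71.2, 81.0 and 76.9 CPM in GFP- cells. The groups did not overlap there either, but the GFP- cells of the cultures already held much of the transcript, and the difference was 2.37-fold (log2 1.25, SE 0.16, edgeR adjusted p = 0.001). Cells of the ESC-OB GFP+ population held 29.1, 48.6 and 38.3 CPM, against 28.8, 32.9 and 25.2 CPM in ESC, with overlapping groups (log2 0.40, SE 0.20, edgeR adjusted p = 0.0943). Without ESC-OB GFP+ replicate 1 it was called (log2 0.63, adjusted p = 0.00565), as it was with libraries thinned to 4920977 counts (log2 0.48, adjusted p = 0.0382). By mean level bone chip GFP+ (hi) cells came first, then bone GFP+ (hi), bone chip GFP-, ESC-OB GFP+, ESC and bone GFP- cells, and among these neighbours the ESC-OB GFP+ and ESC libraries overlapped.

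*Pdgfd* encodes the other CUB-domain ligand, which acts mainly through the β receptor. In bone it was at 103, 86.7 and 111 CPM in GFP+ (hi) cells and at 0.641, 0.654 and 1.53 CPM in GFP- cells, a fitted 96.4-fold difference. In bone chips it was at 29.8, 20.3 and 27.7 CPM in GFP+ (hi) cells and at 0.578, 1.61 and 1.28 CPM in GFP- cells, a fitted 21.5-fold difference. ESC-OB GFP+ cells had it at 4.07, 5.68 and 5.96 CPM, and ESC held no count in any library, which allows up to 0.0633 CPM over the group (3 counts). Against that floor the ESC-OB GFP+ level was at least 81.3-fold higher. By mean level the order was bone GFP+ (hi), bone chip GFP+ (hi), ESC-OB GFP+, bone chip GFP-, bone GFP- and ESC, and of these neighbours the bone chip GFP- and bone GFP- libraries alone overlapped. Since the gene was chosen for these rises, they are given without a test.

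**Figure D2:**
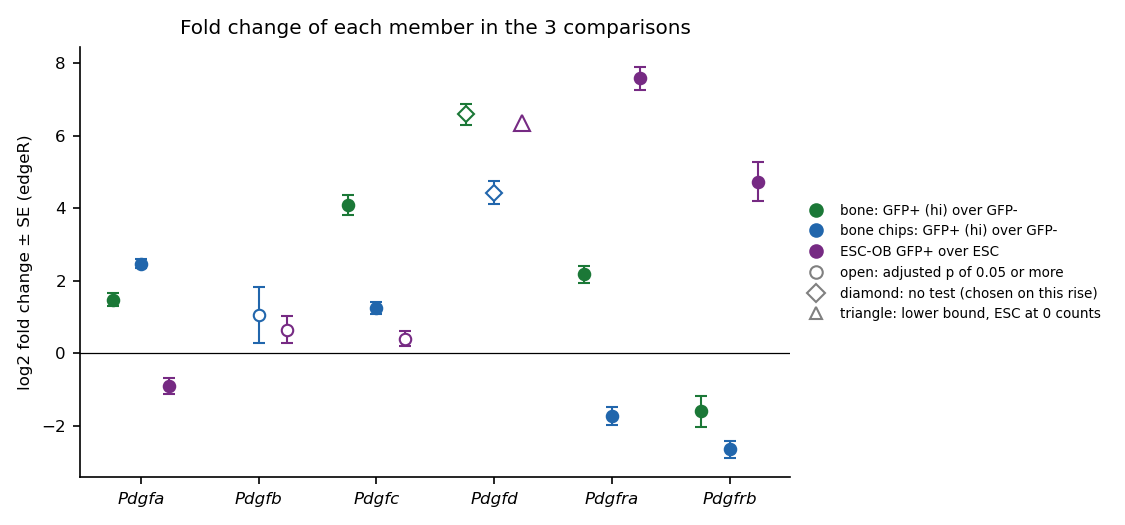
Log2 fold change (edgeR, error bars SE) of each member for bone GFP+ (hi) over GFP-, bone chip GFP+ (hi) over GFP- and ESC-OB GFP+ over ESC. Open circles did not pass the test, and diamonds mark *Pdgfd*, which was chosen on this rise and has no test. The triangle is the lower bound of *Pdgfd* against ESC, and *Pdgfb* in bone did not pass the filter on low counts. *Pdgfra* stands at 2.17, -1.74 and 7.59 in the 3 comparisons.

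Since *Pdgfd* was chosen on these GFP+ values, its differences between sources are also a description. In 1 joint fit of 18 libraries it was 3.87-fold lower in bone chip GFP+ (hi) than in bone GFP+ (hi) cells (log2 -1.95, SE 0.25), 19.1-fold lower in ESC-OB GFP+ than in bone GFP+ (hi) cells (log2 -4.26, SE 0.27) and 4.95-fold lower in ESC-OB GFP+ than in bone chip GFP+ (hi) cells (log2 -2.31, SE 0.26). The 9 GFP+ libraries fell into 3 ranges that did not overlap. With total-count scaling the 3 differences were -1.18, -2.20 and -1.02 on the log2 scale. Between the negative populations the libraries overlapped (log2 0.36, SE 0.44, for bone chip GFP- over bone GFP- cells). Source, culture and deposited table cannot be told apart in these comparisons, and Y-linked and *Xist* counts also differed between bone and bone chip libraries.

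As a description of the make-up within each library, which no scaling touches, counts per kilobase of exon of the 4 ligands were set to 100%. *Pdgfd* made up 39.2, 36.0 and 40.4% of these in bone GFP+ (hi) cells and 1.92, 2.37 and 3.64% in bone GFP- cells, where *Pdgfa* held a median of 85.1%. In bone chips *Pdgfd* held 8.76 to 10.3% of ligand counts among GFP+ (hi) libraries, against 0.835 to 1.89% among GFP- libraries. *Pdgfc* held 37.1 to 41.7% of them in the GFP+ (hi) and 58.1 to 63.1% in the GFP- libraries. *Pdgfd* held 8.19 to 12.2% in ESC-OB GFP+ cells and none in ESC, where *Pdgfa* held 65.6 to 67.8%. The bone GFP+ (hi) population was thus the one in which *Pdgfa*, *Pdgfc* and *Pdgfd* had shares of like size.

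*Pdgfra* encodes the α receptor. In bone it was at 210, 235 and 180 CPM in GFP+ (hi) cells, against 33.2, 36.6 and 56.8 CPM in GFP- cells. The groups did not overlap and the difference was 4.51-fold (log2 2.17, SE 0.23, edgeR adjusted p = 6.99e-05). In bone chips the direction was the other one, with 128, 132 and 138 CPM in GFP+ (hi) cells and 451, 284 and 597 CPM in GFP- cells. There it was 3.33-fold lower in GFP+ (hi) cells (log2 -1.74, SE 0.25, edgeR adjusted p = 0.00174). The bone chip GFP- cells held the highest mean of the 6 populations, and skeletal progenitor and stromal markers were high in the same cells, at a sum of 476 to 526 CPM in GFP+ (hi) and 1794 to 3055 CPM in GFP- libraries, with 9 of 9 genes detected in both groups. Most of the GFP- sum was *Cxcl12*, and of the 9 genes 6 were lower and 1, *Lepr*, was higher in GFP+ (hi) cells (log2 1.16). In bone, where *Pdgfra* was higher in GFP+ (hi) cells, 6 of 8 of these markers were lower and *Lepr* was higher, with a sum of 97.3 to 214 CPM in GFP+ (hi) and 605 to 734 CPM in GFP- libraries. Most of each bone sum was *Nt5e* (61.7 to 160 CPM in GFP+ (hi) and 473 to 596 CPM in GFP- libraries), so the sums of the 2 sources rest on different genes. The part of these markers in the receptor level was not tested.

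*Pdgfra* was near absent from ESC, with 10, 15 and 3 counts in the ESC libraries. It was at 102, 111 and 144 CPM in ESC-OB GFP+ cells and at 1.09, 0.496 and 0.376 CPM in ESC. The difference was 193-fold (log2 7.59, SE 0.32, edgeR adjusted p = 1.59e-08). The order by mean was bone chip GFP-, bone GFP+ (hi), bone chip GFP+ (hi), ESC-OB GFP+, bone GFP- and ESC, in which bone chip GFP+ (hi) and ESC-OB GFP+ libraries overlapped. Primitive endoderm, whose markers were higher in the same ESC-OB libraries, is also known to carry this receptor in the mouse embryo, and its part in the level was not tested.

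*Pdgfrb* encodes the β receptor and lies on the plus strand of chr18:61204804-61244715 in mm9. In bone it was at 8.86, 23.7 and 8.51 CPM in GFP+ (hi) cells, against 32.7, 29.4 and 51.7 CPM in GFP- cells. It was lower in GFP+ (hi) cells (log2 -1.61, SE 0.42, edgeR adjusted p = 0.0131), but replicate 2, the GFP+ library with Y-linked counts, was the highest of its group. With that library alone against the 3 GFP- libraries, which also hold Y-linked counts, the difference was -0.76, a value for which the lone library has to be assumed to vary like the GFP- ones. Without GFP- replicate 3 the difference was not called (log2 -1.30, adjusted p = 0.0621).

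In bone chips *Pdgfrb* was at 47.1, 35.2 and 55.9 CPM in GFP+ (hi) cells and at 325, 214 and 334 CPM in GFP- cells, which again held the highest levels of the series. It was 6.29-fold lower in GFP+ (hi) cells (log2 -2.65, SE 0.24, edgeR adjusted p = 2.09e-04). Mural and pericyte markers had a sum of 946 to 1337 CPM in GFP+ (hi) libraries, against 326 to 440 CPM in GFP- libraries, with 9 of 10 genes detected in both and *Higd1b* at 0. The largest part of each sum was *Cspg4*, at 219 CPM beside 200 CPM of *Acta2* in GFP- replicate 2. Of the 7 genes tested 4 were higher in GFP+ (hi) cells and 1, *Acta2*, was lower (38.9 to 62.1 CPM in GFP+ (hi), against 107 to 200 CPM in GFP- libraries). In bone 2 of 8 were higher and 3 lower, with a sum of 205 to 258 CPM in GFP+ (hi) and 239 to 790 CPM in GFP- libraries. Their part in the receptor level was not tested. *Pdgfrb* was at 46.6, 113 and 90.7 CPM in ESC-OB GFP+ cells, against 6.55, 2.15 and 1.00 CPM in ESC, a difference of 26.6-fold (log2 4.73, SE 0.53, edgeR adjusted p = 1.20e-05). The order by mean was bone chip GFP-, ESC-OB GFP+, bone chip GFP+ (hi), bone GFP-, bone GFP+ (hi) and ESC, and the 3 populations from ESC-OB GFP+ to bone GFP- overlapped their neighbours.

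The balance of the receptors was read within each library as counts per kilobase of *Pdgfra* over those of *Pdgfrb*. It was 19.2, 8.07 and 17.2 in bone GFP+ (hi) cells and 0.825, 1.01 and 0.893 in bone GFP- cells. In bone chips it was 2.21, 3.04 and 2.01 in GFP+ (hi) cells and 1.13, 1.08 and 1.45 in GFP- cells. The α receptor transcript thus outweighed the β one in the GFP+ (hi) cells of both sources, most in fresh bone. The ratio was 1.77, 0.800 and 1.29 in ESC-OB GFP+ cells, against 0.136, 0.188 and 0.305 in ESC. No pair of groups overlapped, and an exact two-sided permutation test of the log2 ratio gave p = 0.1 in each of the 3 comparisons, the smallest p that 3 against 3 libraries allow.

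**Figure D3:**
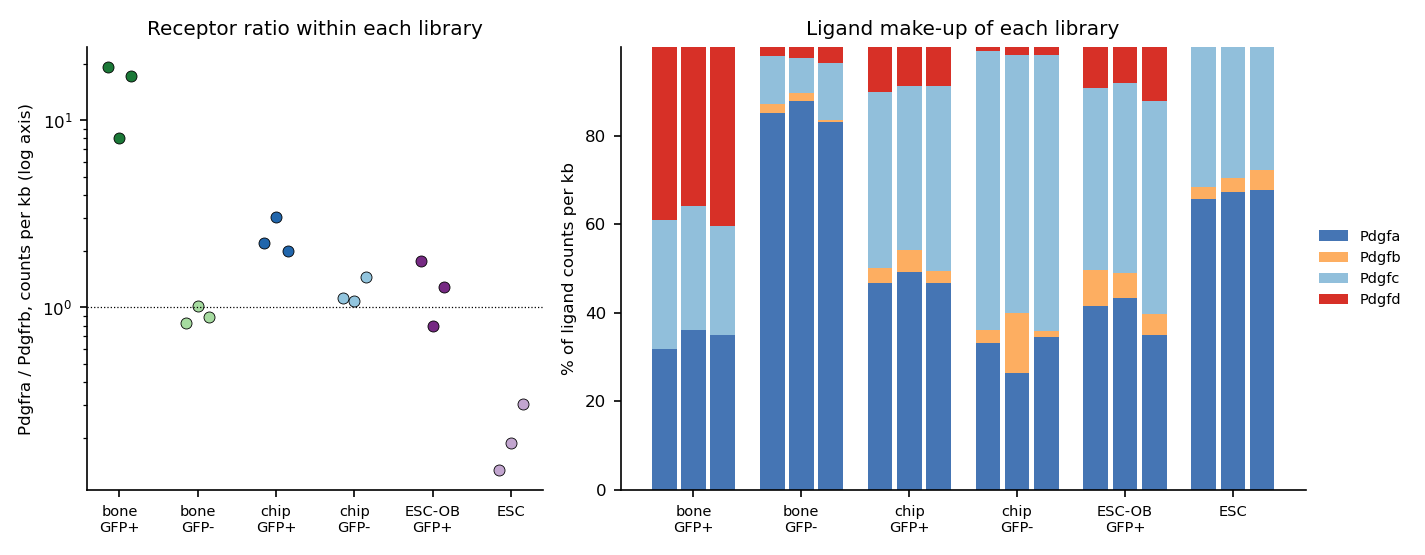
Left, *Pdgfra* over *Pdgfrb* in counts per kilobase of exon for each library (log axis, dotted line at 1); right, percent of the ligand counts per kilobase that each ligand holds in each library, for bone GFP+ (hi), bone GFP-, bone chip GFP+ (hi), bone chip GFP-, ESC-OB GFP+ and ESC. The receptor ratio is 8.07 to 19.2 in bone GFP+ (hi) and 0.136 to 0.305 in ESC libraries, and *Pdgfd* holds 36.0 to 40.4% of ligand counts in bone GFP+ (hi) libraries.

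Whether the GFP effect differed between bone chips and bone was tested by an interaction in 1 fit of 12 libraries, in which 30.3% of 13574 genes were called. Of the members other than *Pdgfb* and *Pdgfd*, *Pdgfra* (log2 -3.91, SE 0.38, edgeR adjusted p = 9.66e-06) and *Pdgfc* (log2 -2.85, SE 0.32, edgeR adjusted p = 3.11e-05) had smaller or opposite effects in bone chips, and *Pdgfa* had a larger one (log2 0.99, SE 0.21, edgeR adjusted p = 0.00375). *Pdgfrb* did not pass (log2 -1.03, SE 0.52, edgeR adjusted p = 0.159). *Pdgfb* entered this fit only through its counts in bone chips, so its difference of effects is a description. It was 3.27 on the log2 scale (SE 1.48), 4.83 without bone chip GFP- replicate 2 and 3.39 with DESeq2. For *Pdgfd* the difference of effects was -2.17 (SE 0.48), given without a test. For *Pdgfc* and *Pdgfra* the negative populations differed as well. Bone chip GFP- cells held 12.5 times the *Pdgfc* of bone GFP- cells (log2 3.64, SE 0.26, edgeR adjusted p = 3.64e-09), 10.5 times the *Pdgfra* (log2 3.40, SE 0.27, adjusted p = 1.20e-08) and 7.67 times the *Pdgfrb* (log2 2.94, SE 0.47, adjusted p = 3.32e-05), whereas *Pdgfa* did not pass (log2 -0.29, SE 0.20, adjusted p = 0.230). *Pdgfb* had 19, 156 and 21 counts in bone chip GFP- libraries, most of them in replicate 2, and 4, 3 and 1 in bone GFP- libraries. It passed the filter on low counts there through the cultured populations, so no test is given. In that contrast 60.8% of all 14782 genes were called.

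Among the GFP+ populations, bone chip cells held more *Pdgfrb* than bone cells (log2 1.78, SE 0.46, edgeR adjusted p = 0.00303), as did ESC-OB cells (log2 2.63, SE 0.47, edgeR adjusted p = 1.14e-04). *Pdgfb* had 304 counts in bone chip GFP+ (hi) and 386 in ESC-OB GFP+ libraries, against 4 in bone GFP+ (hi) libraries. On scaled library sizes the ratios were 99.5 (95% counting interval 38.4 to 367) and 31.9 (12.3 to 118), given with no test, since the gene passed the filter on low counts through the cultured populations. Apart from *Pdgfb* and *Pdgfd*, 4 of 4 members were called in each of these 2 contrasts, beside 59.1% of all genes for bone chips and 58.5% for ESC-OB, shares so large that a call says little of a member by itself. *Pdgfa* and *Pdgfc* were slightly higher in bone chip GFP+ (hi) than in bone GFP+ (hi) cells, at 0.57 (SE 0.19) and 0.65 (SE 0.22) on the log2 scale (adjusted p = 0.0160 and 0.0153). The direction of 3 members turned with the scaling when ESC-OB GFP+ was set against bone GFP+ (hi) cells: *Pdgfa* was -2.03 with TMM factors and 0.028 with total counts, *Pdgfc* was -1.57 and 0.49, and *Pdgfra* was -0.81 and 1.25. *Pdgfra* in bone chip GFP+ (hi) against bone GFP+ (hi) cells turned likewise, at -0.65 (SE 0.25, edgeR adjusted p = 0.0315) with TMM factors and 0.13 with total counts. These 4 differences therefore depend on the scaling in their direction, while those of *Pdgfb*, *Pdgfd* and *Pdgfrb* against bone kept theirs. Between ESC-OB GFP+ and bone chip GFP+ (hi) cells, where 62.7% of genes were called, *Pdgfa* (log2 -2.60, SE 0.20, adjusted p = 7.33e-09), *Pdgfc* (log2 -2.22, SE 0.23, adjusted p = 1.97e-07) and *Pdgfb* (log2 -1.64, SE 0.62, adjusted p = 0.0285) were lower in ESC-OB cells and the receptors did not pass (*Pdgfra* log2 -0.16, SE 0.25, adjusted p = 0.594, and *Pdgfrb* log2 0.86, SE 0.43, adjusted p = 0.0958). With total counts *Pdgfb* was no longer called there (log2 -0.36), and *Pdgfra* (log2 1.13) and *Pdgfrb* (log2 2.14) were called higher in ESC-OB cells.

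The enzymes that process PDGF ligands were read from a list of 10 genes. In bone 4 of the 8 tested were higher in GFP+ (hi) cells and 1 was lower, with a median log2 fold change of 0.62 beside -0.001 for all genes. Of all genes tested in bone, 19.5% were called higher and 22.1% lower, and counts from lists this short say little beside such shares. *Pcsk5*, a proprotein convertase, was at 344, 346 and 377 CPM in GFP+ (hi) cells and 13.6, 11.9 and 19.5 CPM in GFP- cells (log2 4.43, SE 0.21, edgeR adjusted p = 5.35e-07). *Pcsk6*, another convertase, was at 1029, 915 and 851 CPM, against 215, 131 and 175 CPM in GFP- cells (log2 2.29, SE 0.20, edgeR adjusted p = 2.05e-05). The other 2 that passed, *Pcsk7* (log2 0.94) and *Plat* (log2 0.67), lay under the shift of 1.06 between scalings. *St14*, which encodes matriptase, a protease known to cleave PDGF-D, was lower in bone GFP+ (hi) cells (log2 -2.83, SE 0.62, edgeR adjusted p = 0.00551).

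In bone chips 3 of 8 processing genes were higher and 2 lower, beside 20.4% and 23.1% of all genes, with a median of 0.40 beside -0.04 for all genes. *Pcsk6* was at 1191, 1147 and 1338 CPM in GFP+ (hi) cells and 47.5, 64.8 and 43.8 CPM in GFP- cells (log2 4.56, SE 0.19, edgeR adjusted p = 2.02e-05). Both plasminogen activators went down. *Plat*, whose product tissue plasminogen activator cleaves PDGF-C, was at 14.4, 11.3 and 16.7 CPM in GFP+ (hi) cells and 148, 87.8 and 146 CPM in GFP- cells (log2 -3.16, SE 0.25, edgeR adjusted p = 1.30e-04). *Plau*, whose product urokinase cleaves PDGF-D, was at 111, 101 and 147 CPM in GFP+ (hi) cells and 452, 439 and 523 CPM in GFP- cells (log2 -1.97, SE 0.16, edgeR adjusted p = 1.54e-04). *St14* rose to 7.10, 6.93 and 7.72 CPM, against 0.578, 0.841 and 0.359 CPM in GFP- cells (log2 3.63, SE 0.30, edgeR adjusted p = 1.57e-04). In bone both protease genes were scarce in either population. *Plau* had 31 counts over the 3 GFP+ (hi) libraries and 24 over the GFP- libraries, and was not called (log2 -1.02, SE 0.68, edgeR adjusted p = 0.266). *St14*, described above as lower, had 50 counts in GFP+ (hi) and 129 in GFP- libraries.

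In ESC-OB GFP+ cells 7 of 9 processing genes were higher than in ESC and 2 lower, beside 43.0% and 34.7% of all genes, with a median of 0.97 beside 0.22. *Plat* was at 498, 208 and 281 CPM in ESC-OB GFP+ cells, against 0.437, 0.463 and 0 CPM in ESC (log2 9.79, SE 0.54, edgeR adjusted p = 6.99e-08). *Pcsk6* went against its direction in bone and bone chips, at 19.3, 24.2 and 12.2 CPM in ESC-OB GFP+ cells and 162, 135 and 113 CPM in ESC (log2 -2.89, SE 0.26, edgeR adjusted p = 2.21e-06). *Klk1* had 0 counts in ESC-OB GFP+ cells and 107 in ESC, at least 95.3-fold lower against a floor of 3 counts over the group.

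**Figure D4:**
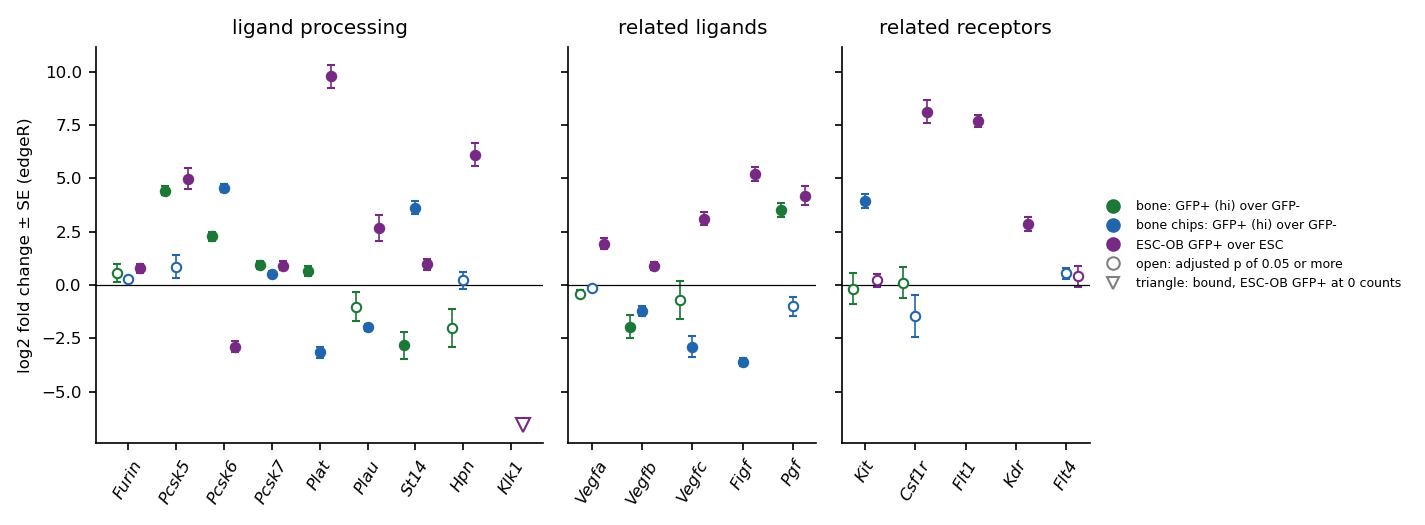
Log2 fold change (edgeR, error bars SE) of ligand-processing enzymes, of related ligands of the vascular endothelial growth factor (VEGF) family and of related receptor tyrosine kinases, for bone GFP+ (hi) over GFP-, bone chip GFP+ (hi) over GFP- and ESC-OB GFP+ over ESC; open circles did not pass the test, and the triangle is the bound of *Klk1*, which had 0 counts in ESC-OB GFP+ cells. *Pcsk6* stands at 2.29, 4.56 and -2.89, and *Plat* at 0.67, -3.16 and 9.79.

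The VEGF genes encode ligands that share the growth factor fold of PDGF. In bone *Pgf*, which encodes placental growth factor, was the 1 of 4 that rose (28.7, 27.7 and 34.4 CPM in GFP+ (hi) cells and 3.52, 1.96 and 1.70 CPM in GFP- cells, log2 3.51, SE 0.32, edgeR adjusted p = 2.99e-05) and *Vegfb* fell by 1.95 on the log2 scale (SE 0.55, edgeR adjusted p = 0.0180). In bone chips 3 of 5 fell and none rose, *Figf*, which encodes VEGF-D, by 3.62 on the log2 scale (SE 0.19, edgeR adjusted p = 3.16e-05). All 5 tested in ESC-OB GFP+ cells were higher than in ESC. For all genes the rises and falls were 19.5% and 22.1% in bone, 20.4% and 23.1% in bone chips, and 43.0% and 34.7% in ESC-OB. Of the related receptors, 0 of 2 were called in bone (neither had an unadjusted p under 0.05), and in bone chips *Kit*, the stem cell factor receptor, was the 1 of 3 that rose (35.0, 36.9 and 23.3 CPM in GFP+ (hi) cells and 3.28, 1.89 and 1.28 CPM in GFP- cells, log2 3.95, SE 0.35, edgeR adjusted p = 2.04e-04). In ESC-OB GFP+ cells 3 of 5 were higher, among them *Csf1r* with 1657 counts against 2 in ESC.

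Of 7 genes for proteins that bind PDGF or its receptors, 2 passed as higher in bone GFP+ (hi) cells and 3 as lower. For bone chips these counts were 3 and 2, and for ESC-OB GFP+ cells against ESC they were 5 and 0. The shares of all genes were 19.5% and 22.1% in bone, 20.4% and 23.1% in bone chips, and 43.0% and 34.7% in ESC-OB. *Nrp2*, which encodes a neuropilin, was at 1468, 1722 and 1588 CPM in bone GFP+ (hi) cells and 11.5, 10.6 and 8.65 CPM in bone GFP- cells (log2 7.14, SE 0.21, edgeR adjusted p = 8.38e-08). It was also higher in bone chips (log2 1.66, adjusted p = 0.00123) but not called in ESC-OB GFP+ cells (log2 -0.60, adjusted p = 0.0777). The other neuropilin gene of the list, *Nrp1*, went the other way in bone (log2 -0.78, adjusted p = 0.0357) and bone chips (log2 -1.28, adjusted p = 1.71e-04). In ESC-OB GFP+ cells *Nrp1* was higher (log2 7.29, adjusted p = 2.88e-07). *Sparc*, whose product osteonectin binds PDGF-B, was higher in each comparison, by 1.47 (SE 0.24), 1.88 (SE 0.15) and 3.77 (SE 0.21) on the log2 scale (edgeR adjusted p = 0.00115, 1.39e-04 and 8.46e-08). *Cspg4*, which encodes the NG2 proteoglycan, a binder of PDGF-A, fell by 1.55 in bone (SE 0.37, edgeR adjusted p = 0.00860) and rose by 2.29 in bone chips (SE 0.15, edgeR adjusted p = 6.39e-05) and by 7.03 in ESC-OB GFP+ cells (SE 0.68, edgeR adjusted p = 4.04e-06). *A2m*, whose product α2-macroglobulin binds PDGF in serum, fell by 4.14 in bone (SE 0.86, edgeR adjusted p = 0.00411), with 4.79, 0.423 and 0.0774 CPM in GFP+ (hi) cells and 25.8, 30.2 and 37.8 CPM in GFP- cells, and was not called in the other comparisons.

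Of 36 genes of adaptors and effectors, such as those of Src kinases, phosphatidylinositol 3-kinase and the Ras pathway, 35 were tested in bone, where 12 rose and 9 fell. Bone chips had 9 rises and 8 falls among 35, and ESC-OB GFP+ cells had 15 and 8 among 36. Their medians were 0.36, 0.13 and 0.19, beside -0.001, -0.04 and 0.22 for all genes. Of all genes, 19.5% rose and 22.1% fell in bone, 20.4% and 23.1% in bone chips, and 43.0% and 34.7% in ESC-OB. *Fyn*, a Src family kinase, was at 441, 400 and 444 CPM in bone GFP+ (hi) cells and 45.2, 45.6 and 50.2 CPM in bone GFP- cells (log2 3.05, SE 0.14, edgeR adjusted p = 5.35e-07), and was higher in bone chips too (log2 1.93, SE 0.18, edgeR adjusted p = 2.29e-04). Among 14 negative regulators, 3 rose and 3 fell in bone (median 0.26). Bone chips had 3 rises and 5 falls (median -0.18), and ESC-OB GFP+ cells had 8 and 4 (median 0.87). *Spry1*, an inhibitor of receptor tyrosine kinase signalling, was higher in all 3 comparisons, at 3.18 (SE 0.26), 1.41 (SE 0.29) and 4.51 (SE 0.21) on the log2 scale (edgeR adjusted p = 1.29e-05, 0.00709 and 2.73e-08), whereas *Spry2* fell in all of them, by 1.91 (SE 0.68), 2.06 (SE 0.11) and 2.54 (SE 0.34) (edgeR adjusted p = 0.0468, 3.64e-05 and 5.22e-05).

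Of 15 early response genes that growth factors induce in many cells, 2 rose and 2 fell in bone (median 0.20), and bone chips had 1 rise and 6 falls (median -0.30). Among all genes 19.5% rose and 22.1% fell in bone, 20.4% and 23.1% in bone chips, and 43.0% and 34.7% in ESC-OB. *Fosl1* and *Cxcl1* were among the genes that fell in both sources, by 2.43 (SE 0.21) and 1.78 (SE 0.25) in bone and by 1.97 (SE 0.27) and 2.06 (SE 0.39) in bone chips on the log2 scale (edgeR adjusted p = 2.10e-05, 4.16e-04, 0.00134 and 0.00503). In ESC-OB GFP+ cells 13 of 15, these 2 included (561 counts of *Fosl1* against 3 in ESC, and 18351 of *Cxcl1* against 1), were higher than in ESC and 1 was lower, with a median of 7.81, also with *Ccl2*, which had no count in ESC, put at its bound. *Egr1* had 199492 counts in ESC-OB GFP+ cells and 19 in ESC (log2 11.88, SE 0.34, edgeR adjusted p = 5.53e-09).

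The genes most like each member were ranked by Pearson's correlation of log2(CPM + 1) over the 18 libraries among 11964 genes, which share libraries, depth and the 6 populations, so the values are a description. For *Pdgfd* they were *Entpd3* (0.983), *Cfhr2* (0.983), *Gucy1a3* (0.982), *Gpr133* (0.973) and *Vav2* (0.967). For *Pdgfra* they were *Cdk14* (0.983), *Ifnar2* (0.976), *Wls* (0.975), *Fosl2* (0.975) and *App* (0.973), and for *Pdgfrb* they were *Mmp3* (0.975), *Loxl1* (0.970), *Vcam1* (0.966), *Prrx2* (0.962) and *C1rb* (0.960). For *Pdgfa* they were *Cnnm2* (0.954), *Csrnp3* (0.950), *Klf12* (0.933), *Pcsk6* (0.931) and *Ptpn4* (0.913), one of them the convertase described above. For *Pdgfc* they included *Nxn* (0.964), *Creld1* (0.956), *Golga4* (0.949) and *Srgap1* (0.938). *Pdgfb* had the lowest top value, with *Egln3* (0.909), *Tet3* (0.888), *Fabp5* (0.886), *Pgm5* (0.883) and *Unc13a* (0.881). Among the members themselves the correlation was highest between the receptors (0.786), followed by *Pdgfd* with *Pdgfa* (0.728) and with *Pdgfc* (0.677), and it was -0.0345 between *Pdgfd* and *Pdgfrb*.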

How the data were processed

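Poly-A RNA was sequenced from both ends by the authors, aligned to mm9 with STAR 2.4.2a and analysed by them in R 3.2.2 with DESeq2. Here the starting point is the counts, which are the whole numbers per RefSeq gene that the authors deposited without normalization, in 1 table per source; the counting tool and strand setting are not given in the sources used here. The bone and bone chip tables hold only genes with at least 2 counts in all.

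Each source was fitted on its own with edgeR 4.0.16 (filterByExpr with a minimum count of 10, TMM factors, glmQLFit and glmQLFTest, R 4.3.3), with Benjamini-Hochberg values over all genes tested and a threshold of 0.05. The SE given with a log2 fold change of edgeR is its absolute value divided by the square root of the F statistic of the quasi-likelihood test. The interaction used 12 libraries, and the contrasts between sources and the joint TMM-scaled CPM used 18. Total counts ran from 4920977 to 43874837, and values of under about 10 counts are imprecise. Exonic lengths are those of GENCODE vM1, which 6 of 6 members matched by symbol. The members and gene lists were chosen with earlier results of these data known. Named genes are the 6 members, up to 4 called genes of each list with the largest change and a mean of 5 CPM in at least 1 group, any gene of the processing, related ligand and related receptor lists, and the 5 genes most like each member, of which 1 is not reported here. Log2 ratios of the receptors were compared by an exact permutation test.

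Residuals of same-numbered libraries correlated at 0.158, 0.329 and 0.397 in bone chips, so the numbers may pair the samples there. They correlated at -0.0217 to 0.0305 in bone and -0.0150 to -0.000703 in the ESC comparison. All main tests were unpaired, those of bone chips included, and pairing by number enters only as the replicate block below. As alternatives, the fits were repeated with DESeq2 1.42.0, with RLE or upper-quartile factors, leaving out *Col1a1* and *Rn45s*, other filters on low counts, a replicate block, thinned libraries, a joint or a pairwise fit, a fold threshold, and leaving out each library in turn. Scaling by total counts in the tests, and a fit with bone GFP+ (hi) replicate 2 alone, were added after seeing the data.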

Additional observations from a re-analysis of the deposited data

Results flagged for a closer look

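The difference between GFP+ (hi) and GFP- cells was itself different in bone chips and in bone for 3 members, by the interaction test of edgeR. *Pdgfra* differed by -3.91 on the log2 scale (bone chips minus bone), being lower in bone chip GFP+ (hi) cells and higher in bone GFP+ (hi) cells than in their GFP- cells. *Pdgfc* differed by -2.85, being higher in the GFP+ (hi) cells of both sources. *Pdgfa* differed by 0.99, being higher in both and more so in bone chips. Adjusted p-values ranged over the 19 alternatives from 1.20e-22 to 2.06e-04 for *Pdgfra*, from 2.23e-17 to 4.55e-04 for *Pdgfc* and from 9.23e-05 to 0.0180 for *Pdgfa*. Source, culture and deposited table cannot be told apart in this contrast. Y-linked and *Xist* counts also differed between bone and bone chip libraries, and their part was not tested.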

How the results depend on the processing

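Of the alternative values of single members, 603 counted as the same, 25 moved, 12 became called, 5 lost their call and 9 reversed. Tested values counted as the same if they kept their side of the threshold and, where either value was called, their direction. Values without a test moved if they changed by more than the SE of the main fit times the square root of 3. For ratios of mean levels the limit was a fixed change on the log2 scale. The replicate block left 4, 4 and 3 members called in bone, bone chips and ESC-OB and 3 in the interaction, and changed no call. With total counts, 5 members in place of 3 were called in ESC-OB, and directions turned for ESC-OB GFP+ over bone GFP+ (hi) cells in *Pdgfa* (0.028 in the fit, 0.0034 as a ratio of mean levels), *Pdgfc* (0.49 and 0.46) and *Pdgfra* (1.25 and 1.23), for bone chip GFP+ (hi) over bone GFP+ (hi) cells in *Pdgfra* (0.13 and 0.13), and for ESC-OB GFP+ over bone chip GFP+ (hi) cells in *Pdgfra* (1.13). That scaling called 696 genes higher and 7789 lower in bone, in place of 2455 and 2776. Of the members called, *Pdgfra* in bone chip GFP+ (hi) over bone GFP+ (hi) cells was also lost with RLE factors (log2 -0.58, adjusted p = 0.0596). The other changes of call stand beside their results, apart from *Pdgfrb* in ESC-OB GFP+ over bone chip GFP+ (hi) cells, called when the pair was fitted on its own (log2 0.83), and *Pdgfa* in bone chip GFP- over bone GFP- cells, called with upper-quartile factors (log2 -0.50) and thinned libraries (log2 -0.45). Nor are calls given for *Pdgfb* in the interaction, a description, or for *Pdgfrb* in the fit with bone GFP+ (hi) replicate 2 alone. *Pdgfb* did not pass the filter on low counts in bone or in the pairwise fit of the GFP- populations. In bone it did enter with DESeq2, without that filter and in the joint fit of 18 libraries, and was not called. The causes were not tested. Depth limits *Pdgfb* in bone, with 12 counts over 6 libraries, and *Pdgfd* in the GFP- populations.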

Other observations

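The summed counts per kilobase of the 4 ligands over those of the receptors, read within each library, were 2.58, 1.97 and 3.10 in bone GFP+ (hi) cells and 0.981, 0.818 and 0.751 in bone GFP- cells. They were 3.37, 2.85 and 3.28 in bone chip GFP+ (hi) cells and 0.176, 0.338 and 0.162 in bone chip GFP- cells. In ESC-OB GFP+ cells they were 0.593, 0.600 and 0.412, and in ESC 13.2, 47.1 and 74.4, where the receptors had few counts. The GFP+ (hi) cells of bone and bone chips thus held more ligand than receptor transcript, and the GFP- cells and the ESC-OB GFP+ cells less. The ligand sum includes *Pdgfd*, which was chosen for its rise, so no test is given.

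Pluripotency transcripts (6 of 6 genes) summed to 21.5, 25.5 and 28.4 CPM in bone GFP+ (hi) libraries, 1.04% of their mean in ESC, and to at most 0.801 CPM in bone GFP- libraries. Their part in the values of the family was not tested.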
